A study of Mus musculus with 6 samples.

Results

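The genes described here encode the adaptor and docking proteins that gather on the activated Ret receptor. The set holds 10 genes, Shc1, Shc2, Shc3, Frs2, Frs3, Grb2, Gab1, Dok4, Dok5 and Dok6, chosen by name from 41388 genes in the count files, and each of the 10 symbols matched 1 Ensembl gene. Ret is a receptor tyrosine kinase that responds to ligands of the GDNF family through GFRα co-receptors. Once phosphorylated, a tyrosine in its cytoplasmic tail is read by the PTB domains of Shc, Frs and Dok proteins. These recruit Grb2 and Gab1, which lead to the Ras to MAP kinase cascade and to PI3 kinase and Akt. In sensory neurons this signalling is known for its part in survival, axon growth and the maturation of nociceptors.

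RNA came from EGFP-positive cells sorted from dorsal root ganglia (DRG, the clusters of sensory neuron cell bodies beside the spinal cord) of levels T11 to S1 of C57BL/6 mice at 18.5 dpc, shortly before birth. All 6 libraries carried the Ret-EGFP reporter, labelled Tg(Ret-EGFP)SJ as a genotype but described for the series as EGFP knocked into Ret in heterozygotes, so the number of intact Ret alleles is not settled. The 3 male libraries are A (ganglia of 3 embryos pooled), C (2 embryos) and D (2 embryos), and the 3 female libraries are A (3 embryos), B (1 embryo) and C (1 embryo), with no treatment in either sex. Females B and C are described in a second set of records. EGFP-negative cells were not analysed here, so a level is not an enrichment over other ganglion cells. In such bulk samples fewer cells of a type and less RNA per cell cannot be told apart.

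Total counts ran from 17861500 to 29330101 per library. All 12 sensory neuron markers examined, among them Stmn2 and Isl1, had counts in every library, with a summed level of 6761 to 9376 RPKM. RPKM is the library-scaled count per kilobase of exon, here scaled with TMM factors that correct for library composition. Male A stood apart from the other 5 libraries. Its satellite glia and Schwann cell markers summed to 1399 RPKM against 738 to 865, with 9 of 12 highest there. Its fibroblast and meningeal markers summed to 440 RPKM against 167 to 224, with 7 of 8 highest there. Of the glial markers, Fabp7 and S100b were lowest in male A, at 270 and 36.5 RPKM. Endothelial and pericyte markers summed to 21.6 RPKM in male A and 8.60 to 17.5 elsewhere, macrophage and immune markers to 14.8 and 8.84 to 12.9, and erythroid markers to 14.0 and 13.3 to 56.8. Twist1, C1qa and Csf1r, of the fibroblast and immune lists, were at 0 counts in at least 1 library. The library labelled male C held 58.9 CPM (the count scaled to library size) of Xist, a transcript of female cells, against 0.418 in male A, 0.576 in male D and 112 to 197 in females. Kdm5d, a Y gene, was at 9.73 CPM in male C and 11.2 and 15.9 CPM in males A and D. Male C was kept as labelled in the comparisons of the sexes, and whether its pool of 2 embryos held both sexes was not tested.

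The adaptor genes covered a wide range of levels, headed by Dok4 and ending with Dok6 and Shc3. By mean RPKM over the 6 libraries the order was Dok4, Grb2, Gab1, Dok5, Shc2, Frs2, Shc1, Frs3, Dok6 and Shc3. Dok4 averaged 92.2 ± 22.3 RPKM (SD, n = 6), Grb2 24.1 ± 3.47, Gab1 14.8 ± 1.85, Dok5 11.2 ± 3.27 and Shc2 8.45 ± 0.708. The lower ranks were Frs2 at 3.08 ± 0.763 RPKM, Shc1 at 3.08 ± 0.603, Frs3 at 0.889 ± 0.277, Dok6 at 0.458 ± 0.263 and Shc3 at 0.247 ± 0.193. Among the 14958 genes with enough counts to test, the mean level of Dok4 lay above 95.3% of genes, that of Grb2 above 83.9% and that of Shc1 above 43.9%, where the median gene stood at 4.08 RPKM. For scale, Ret itself was at 24.7 ± 3.70 RPKM, and per length Grb2 was at 99.1% ± 20.5 of Ret in the same library, Gab1 at 60.2% ± 3.87 and Dok4 at 390% ± 156 (SD, n = 6). In 7 of the 10 genes every library was above 1 RPKM; the exceptions are Frs3, Dok6 and Shc3.

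**Figure D1:**
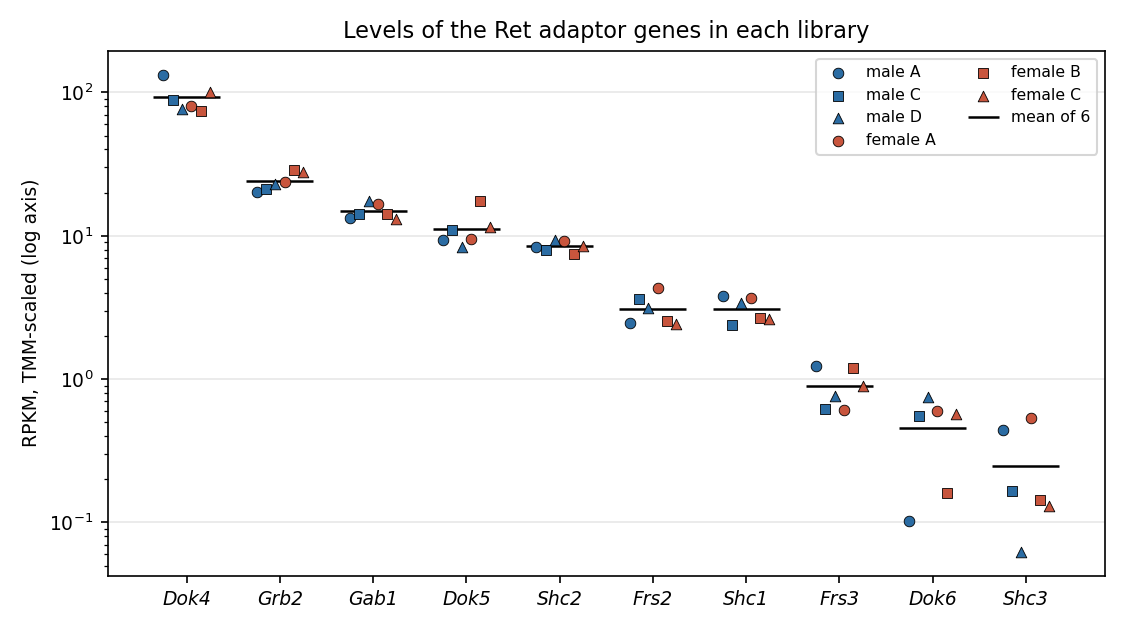
RPKM (TMM-scaled, log axis) of the 10 adaptor genes, 1 point per library, males in blue and females in red, with a bar at the mean of 6. Dok4 lies between 74.3 and 133 RPKM and above the other 9 genes in every library, while Dok6 and Shc3 lie below 1 RPKM.

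Neighbours in this order were compared within each library by exact sign-flip permutation tests on the log2 ratio (two-sided, adjusted over the 9 neighbouring pairs). The smallest p that 6 libraries allow is 0.03125, and with 9 pairs the smallest adjusted p reached was 0.05625, so 0 of the 9 passed 0.05 after adjustment. The 5 steps that went the same way in 6 of 6 libraries had that value: Dok4 over Grb2 (3.78-fold by the geometric mean), Grb2 over Gab1 (1.62-fold), Shc2 over Frs2 (2.80-fold), Shc1 over Frs3 (3.55-fold) and Frs3 over Dok6 (2.34-fold). The last of these was very small in males C and D and female A, with log2 ratios of 0.16, 0.022 and 0.023. The other steps did not go the same way in all libraries: Gab1 over Dok5 and Dok5 over Shc2 held in 5 of 6 (exact adjusted p = 0.121 each), Dok6 over Shc3 in 5 of 6 (exact adjusted p = 0.316) and Frs2 over Shc1 in 2 of 6 (exact adjusted p = 0.969). With the longest annotated transcript in place of the exon length of the files, 6 of 9 steps had an exact adjusted p of 0.0469. They were the 5 above and that between Frs2 and Shc1, which ran against the order, with Shc1 above Frs2. Shc2 also moved above Dok5.

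The Shc proteins couple phosphorylated receptors to Grb2 and so to Ras. Shc2 was the main transcript of this family, Shc1 was second and Shc3 was near the limit of detection. Shc2, also called ShcB or Sck and known to be needed for a part of the nociceptive neurons in mice, is ENSMUSG00000020312 (GRCm38 chromosome 10, 79617940 to 79637918, minus strand). It stood at 8.33, 7.97 and 9.34 RPKM in males A, C and D and at 9.17, 7.47 and 8.44 RPKM in females A, B and C. It hardly varied, and the sexes overlapped. Shc1, the widely expressed member (ENSMUSG00000042626, chromosome 3, 89418443 to 89430027, plus strand), was at 3.77, 2.37 and 3.38 RPKM in males A, C and D and at 3.68, 2.67 and 2.62 RPKM in females A, B and C. Its highest value was that of male A, in which the summed glial and fibroblast markers were also highest, though female A was close to it. The part of glia and fibroblasts in the level was not tested. Shc3, a form known chiefly from the mature nervous system (ENSMUSG00000021448, chromosome 13, 51431041 to 51567084, minus strand), had 13, 8 and 2 counts in males A, C and D and 18, 4 and 4 in females A, B and C. These correspond to 0.442, 0.165 and 0.0624 RPKM and to 0.535, 0.144 and 0.130 RPKM. The 2 counts of male D carry an exact 95% Poisson interval of 0.00756 to 0.225 RPKM, for counting error only, so the lower libraries cannot be ordered.

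Within each library Shc2 exceeded Shc1 by 2.21-fold to 3.37-fold (geometric mean 2.78-fold) and Shc3 by 17.1-fold to 150-fold (44.6-fold), each in 6 of 6 libraries. Shc1 exceeded Shc3 by 6.88-fold to 54.2-fold (16.03-fold). The highest of these ratios are those of male D, where Shc3 had 2 counts and the interval for Shc2 over Shc3 ran from 41.3 to 1237 (95% exact binomial, counting error only). Over the 7 pairs of paralogues compared in the 3 families, the exact sign-flip permutation test gave p = 0.03125 for each pair, which is the smallest it can give, and the adjusted value is the same. As a share of the family's counts per kilobase, Shc2 took 72.0% ± 3.79 (SD, n = 6), Shc1 25.99% ± 2.75 and Shc3 2.02% ± 1.403. Shc4, the fourth Shc gene, was at 0.483 to 0.557 RPKM in males and 0.570 to 0.945 RPKM in females, and with it in the sum Shc2 took 68.3% ± 3.67.

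**Figure D2:**
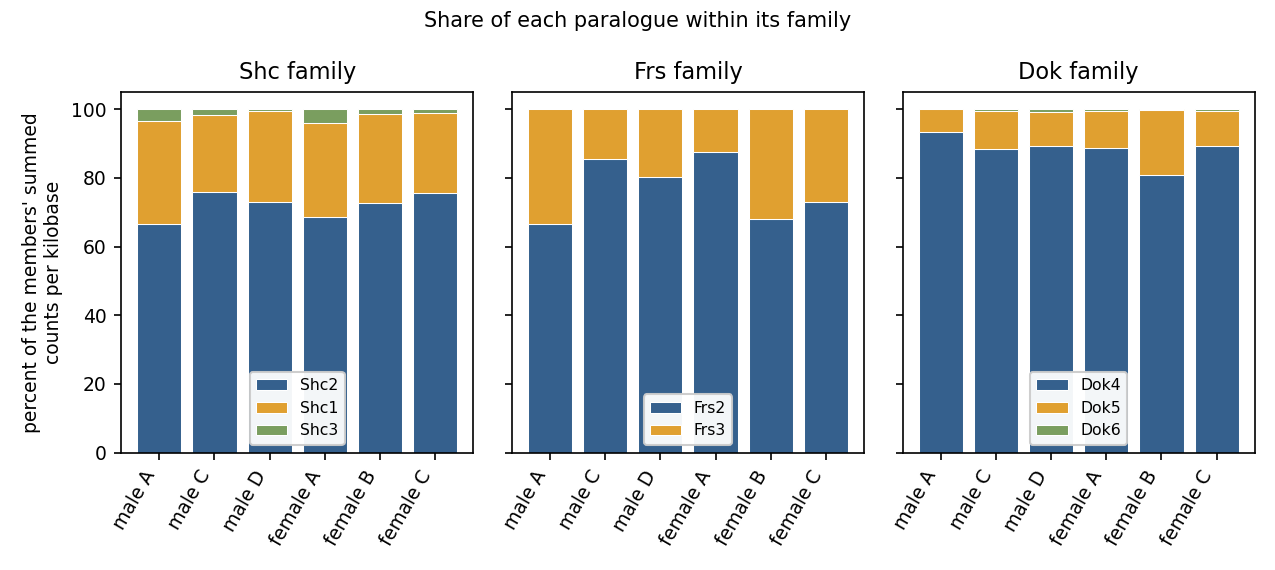
Percent of the members' summed counts per kilobase taken by each paralogue in the Shc, Frs and Dok families, 1 bar per library. Shc2, Frs2 and Dok4 are the largest part in each of the 6 libraries, and the Frs split varies most, with Frs2 between 66.6% and 87.5%.

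Frs proteins are membrane-anchored docking proteins that bind Ret and FGF receptors and gather Grb2 and the phosphatase Shp2. Frs2 was the higher of the pair in each library, and its share of the family varied more (SD 8.95 points) than those of Shc2 (3.79) and Dok4 (4.09). The size of its lead depended on the length used. With the longest annotated transcript as the length, Frs2 took only 54.7% of the pair in male A and 56.3% in female B. Frs2 (ENSMUSG00000020170, chromosome 10, 117070129 to 117148474, minus strand) stood at 2.47, 3.65 and 3.12 RPKM in males A, C and D and at 4.30, 2.55 and 2.42 RPKM in females A, B and C. Frs3 (ENSMUSG00000023266, chromosome 17, 47689030 to 47704286, plus strand) was at 1.24, 0.618 and 0.767 RPKM in males A, C and D and at 0.613, 1.204 and 0.897 RPKM in females A, B and C. The libraries split in opposite ways for the Frs genes. Males C and D and female A were high in Frs2 and low in Frs3, and male A and females B and C the reverse. The ratio of Frs2 to Frs3 ran from 1.99-fold to 7.01-fold with a geometric mean of 3.53-fold (higher in 6 of 6 libraries, exact permutation p = 0.03125). Frs2 took 85.5%, 80.3% and 87.5% of the pair in males C and D and female A and 66.6%, 68.0% and 72.9% in male A and females B and C. Over all tested genes, the median log2 deviation of genes with over 6 kb of exon minus that of genes under 2 kb was 0.11, 0.12 and 0.34 in the first 3 of these libraries and -0.43, -0.12 and -0.057 in the others. This measure of long against short genes, chosen after the values were seen, therefore split the libraries in the same way. Neither Frs gene falls in the classes it compares, with 5682 bp of exon for Frs2 and 3128 bp for Frs3. The part of gene length in the Frs split was not tested. Exons of Frs3 overlap those of Frs3os on the opposite strand over 509 bp, and Frs3os had 2 counts in all. That low count cannot show whether reads in the shared bases were left out of Frs3, which was not tested.

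Dok4, Dok5 and Dok6 form the Dok branch that binds Ret and, in contrast to Dok1 and Dok2, is known to favour neurite outgrowth and MAP kinase signalling. Dok4 took most of this branch. Dok4 (ENSMUSG00000040631, chromosome 8, 94863828 to 94876312, minus strand) stood at 133, 88.3 and 76.1 RPKM in males A, C and D and at 80.4, 74.3 and 100.8 RPKM in females A, B and C. Male A was highest, at 1.58 times the mean of the other 5 libraries, and the sexes overlapped. Dok5 (ENSMUSG00000027560, chromosome 2, 170731807 to 170879769, plus strand) was at 9.32, 10.9 and 8.41 RPKM in males A, C and D and at 9.53, 17.4 and 11.6 RPKM in females A, B and C. Female B lay above the other 5 libraries, which were within 8.41 to 11.6 RPKM. Dok6 (ENSMUSG00000073514, chromosome 18, 89301082 to 89769528, minus strand) had 10, 90 and 81 counts in males A, C and D and 68, 15 and 59 in females A, B and C. These are 0.102, 0.554 and 0.755 RPKM and 0.604, 0.161 and 0.574 RPKM. Male A and female B were several times lower than the other 4 libraries, with exact 95% Poisson intervals, for counting error only, of 0.0487 to 0.187 and 0.0904 to 0.266 RPKM.

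Dok4 exceeded Dok5 by 4.26-fold to 14.3-fold within a library (geometric mean 8.30-fold) and Dok6 by 101-fold to 1309-fold (247-fold), and Dok5 exceeded Dok6 by 11.1-fold to 108-fold (29.8-fold). All 3 held in 6 of 6 libraries, each with exact permutation p = 0.03125. Dok4 took 88.3% ± 4.09 of the counts per kilobase of the 3 genes (SD, n = 6), Dok5 11.2% ± 4.13 and Dok6 0.477% ± 0.305. The lowest Dok4 share was 80.8% in female B. Of the other Dok genes, Dok1, which recruits the Ras inhibitor RasGAP, was at 6.40 to 10.0 RPKM. Dok2, Dok3 and Dok7 were at 0.0180 to 0.276, 0.0310 to 0.266 and 0.0227 to 0.270 RPKM. With these 4 in the sum, Dok4 took 82.2% ± 4.52. Exons of Dok4 share 415 bp with Polr2c on the opposite strand in the files, and whether counting used the strand is not stated in the sources. Polr2c, a subunit of RNA polymerase II, was at 4.88 to 10.4 RPKM without TMM scaling, well below Dok4. Leaving those bases out of the Dok4 length, an alternative added on seeing the overlap, took its log2 ratio to Dok5 from 3.05 to 3.30. The Dok4 counts were left as they were, so this shift is fixed by the length and could only be upward. Whether reads of Polr2c were counted for Dok4 was not tested.

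Grb2 is the SH2 and SH3 adaptor that carries the Ras exchange factor Sos to receptors, and Gab1 is the docking protein that Grb2 brings in to engage PI3 kinase and Shp2. Both were steady across the libraries. Grb2 (ENSMUSG00000059923, chromosome 11, 115644045 to 115708597, minus strand) stood at 20.1, 21.2 and 23.1 RPKM in males A, C and D and at 23.7, 28.7 and 27.7 RPKM in females A, B and C. The 3 female values all exceeded the 3 male values, though female A was close to male D. Gab1 (ENSMUSG00000031714, chromosome 8, 80764434 to 80880479, minus strand) was at 13.2, 14.1 and 17.5 RPKM in males A, C and D and at 16.8, 14.3 and 13.1 RPKM in females A, B and C, with the sexes overlapping. Their relatives differed in level. Grap2 had no counts and Grap, a Grb2 relative of blood cells, had 0 to 3 counts per library, whereas Gab2 was at 4.64 to 8.36 RPKM and Gab3 at 0.322 to 0.669 RPKM. Gm12791 shares 24.1% of the longest Grb2 transcript at 95% identity or more but had 11 counts in all. AC123951.1, which is not among the genes counted, shares 28.3% of that of Shc1. Galnt1 shares 7.99% of that of Frs2 and was at 1.75 to 3.60 RPKM without TMM scaling. The part of shared sequence in these levels was not tested.

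The members differed widely in how far they varied between libraries. The coefficient of variation (CV, SD over mean of TMM-scaled CPM) was 8.37% for Shc2, 12.5% for Gab1 and 14.4% for Grb2, against 3.12%, 2.52% and 2.57% from counting alone. That of Shc2 was below the CV of all but 3.06% of the 14958 tested genes, whose median was 25.3%. Shc1 (19.6%), Dok4 (24.2%), Frs2 (24.7%), Dok5 (29.1%) and Frs3 (31.2%) were nearer that median. Dok6 had 57.5%, above 90.6% of tested genes and against 13.6% from counting alone, and Shc3 had 78.3% against 35.0%. Of the 10 genes, 3 were highest in male A (Shc1, Frs3 and Dok4) and 2 were lowest there (Grb2 and Dok6). The leading paralogue of each family was the same in each of the 6 libraries, and hence also without male A and without male C.

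**Figure D3:**
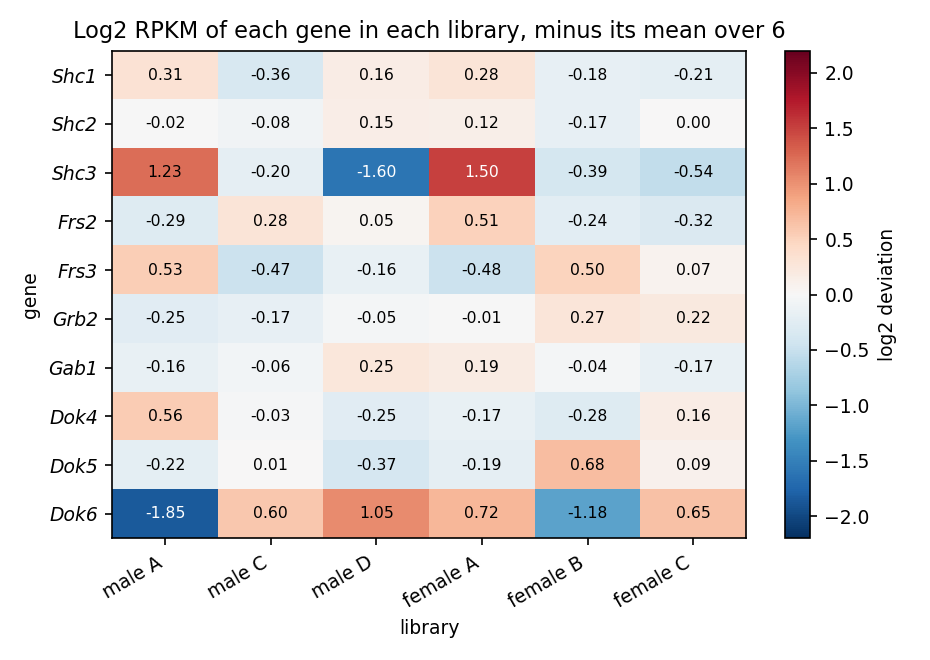
Log2 RPKM of each adaptor gene in each library minus its mean over the 6 libraries, as a colour and a number per cell. Shc2 stays within -0.17 and 0.15, Frs2 and Frs3 take opposite signs in each of the 6 libraries, and Dok6 is at -1.85 in male A.

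Sex is the only biological condition that varies in the labels. The adaptors were tested for it, females minus males, by the edgeR quasi-likelihood test, fitted and adjusted over 14958 genes. Pool size also varied, and females B and C, of the second record set, were the only libraries of 1 embryo. Record set and pools of 1 embryo therefore cannot be told apart. Of the 10 members, 9 had enough counts to be tested and 0 were called at an adjusted p under 0.05, where 0.0267% of all tested genes were. None of the 9 had an unadjusted p under 0.05, against 4.42% of all tested genes, and DESeq2 and limma voom also called 0 members. Among the 9, 4 were higher and 5 lower in females, with a median log2 change of -0.022 beside -0.0036 for all tested genes. Without male A the split was 5 to 4 and the median 0.050. The split was 5 to 5, with a median of -0.0011, without male C, where 10 members were tested. Grb2 had a log2 change of 0.31 (standard error 0.19, adjusted p = 0.961) and was the only member without overlap between the sexes. Each female library lay above each male one in 4.18% of tested genes and each male above each female in 3.88%. Without male C, whose Xist level differs from the other males, the change of Grb2 was 0.30, and with record set as a term it was 0.14. Of the markers tested, 10 of 12 glial and Schwann cell, 6 of 7 fibroblast and 8 of 8 endothelial and pericyte genes were lower in females, as were 3 of 3 immune genes, while 10 of 12 neuronal and 5 of 5 erythroid genes were higher. Without male A, 5 of 12 glial and 4 of 7 fibroblast genes were lower. All 8 endothelial and pericyte and all 3 immune genes stayed lower, and 9 of 12 neuronal and 5 of 5 erythroid genes higher. The part of these cells in the adaptor values was not tested. Dok5 had a log2 change of 0.42 (standard error 0.27, adjusted p = 0.961), with its highest level in female B. It was 0.14 without female B and -0.0045 with record set as a term. For Dok4 the change was -0.22 (standard error 0.25, adjusted p = 0.972), and 0.050 without male A. The other log2 changes were -0.084 for Shc1, -0.031 for Shc2, 0.0050 for Frs2, 0.053 for Frs3, -0.022 for Gab1 and -0.076 for Dok6, with adjusted p from 0.994 to 0.999 by edgeR. The standard errors ran from 0.19 for Grb2 and Shc2 to 0.69 for Dok6, and a p that misses the threshold does not show equal levels. Shc3 was tested without a low-count filter (log2 change 0.30, standard error 0.84, adjusted p = 0.986 by edgeR).

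**Figure D4:**
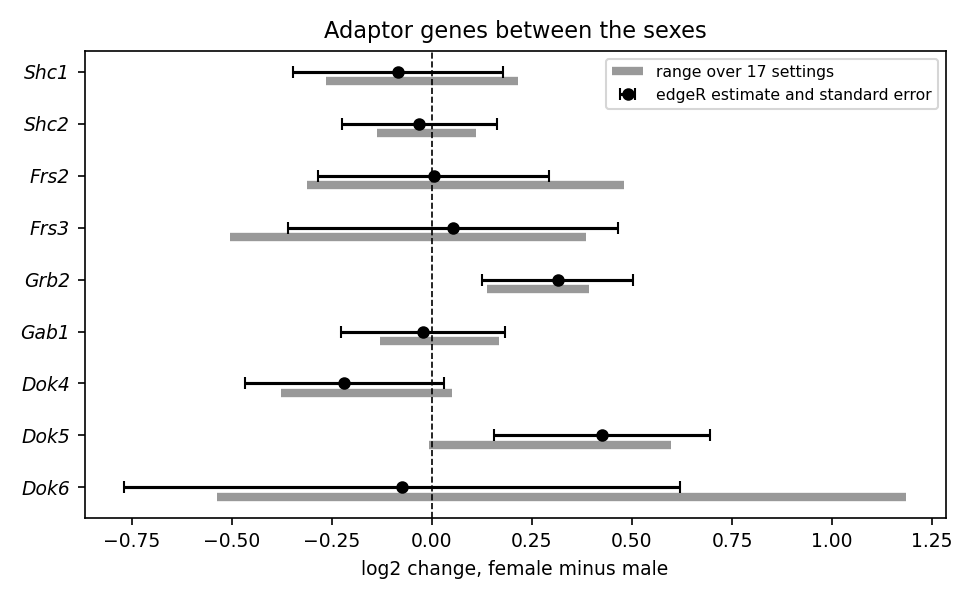
Log2 change of the 9 tested adaptor genes, female minus male, as the edgeR estimate with its standard error (black) and the range of the estimate over 17 settings of the analysis (grey). Grb2 is the only gene whose range stays on 1 side of 0, from 0.14 to 0.39.

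The balance of paralogues was also compared between the sexes by exact permutation tests, in which 3 against 3 libraries cannot give a p below 0.1. Shc2 took 72.2% ± 3.50 of its family in females and 71.8% ± 4.86 in males (SD, n = 3 each, exact permutation p = 1). Frs2 took 76.1% ± 10.2 and 77.5% ± 9.77 (exact permutation p = 1), and Dok4 took 86.3% ± 4.73 and 90.4% ± 2.64 (exact permutation p = 0.5). The differences for Shc2 and Frs2 were smaller than the SD of either sex. That for Dok4, at -4.07 points, was smaller than the SD of females but not that of males.

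Other genes of the pathway were counted by role in 4 lists and in the paralogues of the families. Of 20 other Ret-binding adaptors and enzymes, 19 were tested and 0 were called, with 9 higher and 10 lower in females. Stat3, a transcription factor that docks on Ret, was the highest at 25.98 ± 2.85 RPKM, followed by the adaptor Crk at 19.3 ± 4.70, and Sh2b1 had the smallest p (log2 change -0.77, adjusted p = 0.961 by edgeR). Without male A, its highest library, the change of Sh2b1 was -0.32. In the Ras to MAP kinase list 0 of 14 were called, with 11 higher and 3 lower in females and a median log2 change of 0.36. That median was 0.19 without male A, with 9 higher and 5 lower, and 0.62 without male D. Nras, a Ras protein, was at 302 ± 98.2 RPKM, and Mapk3, which encodes ERK1, at 225 ± 19.4 RPKM. For Nras the log2 change was 0.73 (standard error 0.22, adjusted p = 0.961 by edgeR), and its sexes did not overlap. Each female library lay above each male one in 4.18% of all tested genes. For Nras, female A (295 RPKM) was close to male D (269 RPKM). Females B and C, of the second record set, were at 426 and 410 RPKM. In the PI3 kinase to Akt list 0 of 11 were called, with 4 higher and 7 lower. The regulatory subunit gene Pik3r1 was at 24.0 ± 5.26 RPKM, and Pik3r2 had the smallest p (log2 change -0.69, adjusted p = 0.961 by edgeR). Without male A the change of Pik3r2 was -0.17. The split of the list was 7 higher and 4 lower without male C and likewise without male D. Of 15 receptors that use these adaptors, 12 were tested and 0 were called, with 5 higher and 7 lower. Igf1r, the receptor for insulin-like growth factor, had the smallest p (log2 change 0.95, adjusted p = 0.961 by edgeR). Without male A the change of Igf1r was 0.59, and 7 of 13 tested receptors were higher. Igf1r was at 14.1 and 16.2 RPKM in females B and C, of the second record set. In female A it was at 9.55 RPKM, below male C at 9.72 RPKM. Of the 6 tested paralogues outside the members, 5 were higher and 1 lower in females and 0 were called.

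The genes whose log2 CPM followed a leading member most closely over the 6 libraries were Iffo1 (Pearson r = 0.985) and 5330438D12Rik (0.976) for Shc2, Zfp143 (0.995) and Med23 (0.991) for Frs2, and Tmem115 (0.996) and Sf3b2 (0.995) for Dok4. For Grb2 they were Rrn3 (0.995) and Palm2 (0.995), and for Gab1 Zfp354a (0.996) and ENSMUSG00000079662 (0.995). These are descriptions over 6 points out of 14958 genes compared. The number of genes with r over 0.95 was 7 for Shc2, 47 for Frs2, 77 for Gab1, 158 for Grb2 and 189 for Dok4.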

How the data were processed

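Per the labels, EGFP-positive cells of pooled ganglia were sorted into TRIzol-LS and cDNA was made from 10 ng of RNA and amplified by a SMARTer low-input method. Per the submitters' processing notes, Subread and featureCounts 1.4.5 on GRCm38.p2 were used. How strand and multi-mapped reads were handled is not stated in the sources used. The authors deposited raw counts per Ensembl gene. The deposited CPM are those counts scaled to the library total, and the deposited RPKM are the CPM per kilobase of exon length; recomputing them gave the same values (largest difference 4.5e-11). Of 41388 genes, 40254 were given a symbol.

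Levels are RPKM from the counts, with TMM factors of 0.922 to 1.08 from edgeR 4.0.16. They were compared between sexes with the edgeR quasi-likelihood test in R 4.3.3 on genes kept by filterByExpr, with Benjamini-Hochberg adjustment over all tested genes and a threshold of 0.05. The standard error is the log2 change divided by the square root of F. The common dispersion corresponds to a coefficient of variation of 31.1%. Paralogues were compared within libraries by exact sign-flip tests (scipy 1.17.1). The replicates are libraries of different embryos. A count of 0 allows up to 3 counts, or 0.102 to 0.168 CPM; both cover counting error alone, since reads amplified with no molecular identifiers can repeat 1 molecule.

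Exon overlaps of at least 100 bp and shared sequence of at least 150 bp at 95% identity were sought in GENCODE M21, which also gave the longest transcripts. Alternatives were RLE, upper quartile and no normalization, 2 other low-count filters, DESeq2 1.42.0, limma voom 3.58.1, a replicate block, a record set term or 1 record set only, each library left out, other lengths and 0.5 counts added. The named genes are all 10 members, the family paralogues, from each other pathway list the pair with the highest RPKM and the gene with the smallest p, and the pair most alike each leading member; some of these are not reported here. Members, lists and tests were chosen with earlier results of these data known.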

Additional observations from a re-analysis of the deposited data

Results flagged for a closer look

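Across the 20 levels, ratios and shares of the adaptor genes examined for a library far from the other 5 (Dixon's test at its 95% critical value, over the 6 libraries of both sexes), 1 stood out. Dok5 in female B, at 17.4 RPKM, lay above the next library by 0.651 of the whole range. Chance flags about 1 group in 20. Female B is 1 of the 2 libraries of the second record set; the other, female C, was at 11.6 RPKM.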

How the results depend on the processing

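Between the sexes, 0 adaptor genes and 0 genes of the other pathway lists were called under each of the 16 alternatives, and Grb2 kept its sign in all of them (0.14 to 0.39). The other log2 changes, none of them past the threshold, changed sign as follows. With the replicate letter as a block they were 0.055 for Shc1, 0.11 for Shc2, -0.23 for Frs3, 0.12 for Gab1 and 1.19 for Dok6. With record set as a term they were 0.22 for Shc1, 0.10 for Shc2, -0.50 for Frs3, 0.17 for Gab1, -0.0045 for Dok5 and 0.35 for Dok6, and with the first record set only (1 female library, assumed to vary like the males) 0.22, 0.10, -0.50, 0.17, -0.0066 and 0.35. Frs2 was at -0.012 with RLE, -0.026 with upper quartile, -0.096 with plain totals, -0.0049 with no filter, -0.012 with DESeq2 and -0.033 with voom. Frs3 was at -0.077 with plain totals, which moved the median of all genes to -0.12, and Dok6 was at 0.081 with voom. With 1 library left out the ranges were -0.26 to 0.058 for Shc1, -0.10 to 0.045 for Shc2, -0.31 to 0.16 for Frs2, -0.20 to 0.38 for Frs3, -0.13 to 0.11 for Gab1, -0.38 to 0.050 for Dok4, 0.14 (without female B) to 0.60 for Dok5 and -0.54 to 0.41 for Dok6. The replicate letters A and C occur in both sexes, but the labels do not say that they pair libraries, and deviations of the same letter correlated at -0.078 and 0.052. The replicate block left 1 residual degree of freedom and called 77 genes in place of 4. Over all genes, no filter called 14, DESeq2 13, voom 1, record set as a term 0, the first record set alone 0, and leaving out 1 library 0 (female A) to 5.

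The paralogue ratios kept their direction throughout, but 5 libraries cannot give an exact p below 0.0625 or 4 below 0.125. With 1 library left out the log2 ratios ran from 1.42 to 1.54 for Shc2 to Shc1, 3.65 to 4.25 for Shc1 to Shc3, 5.13 to 5.75 for Shc2 to Shc3, 1.62 to 1.98 for Frs2 to Frs3, 2.90 to 3.24 for Dok4 to Dok5, 7.47 to 8.21 for Dok4 to Dok6 and 4.52 to 5.18 for Dok5 to Dok6. With the first record set only they were 1.42, 3.87, 5.29, 2.10, 3.28, 7.85 and 4.57. With the longest transcript as the length 6 neighbours differed, 1 of them (Frs2 to Shc1) in reverse, and 4 genes changed rank. Dok5 to Shc2 was then at -0.21 and the Frs2 share was 67.2%. Without 1 library Frs2 to Shc1 ran from -0.14 to 0.11 and 0 to 2 genes changed rank (2 without male C or female A). All Dok genes in the sum gave a Dok4 share of 82.2%. The female minus male share was -3.29 points for Shc2 and 10.1 for Frs2 in the first record set, which holds 1 female library and so describes that library against 3 males, and -2.28 for Shc2 without male A. The causes of these changes were not tested. Low counts limit Shc3 (2 to 18 counts) and Dok6 (10 to 90 counts), though the spread of both exceeded that from counting alone. The exon length used was 1537 bp for Shc3 and 5146 bp for Dok6, against longest annotated transcripts of 3163 and 10099 bp. Reads outside the exons used would not be counted.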

Other observations

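Outside the comparisons, the nearest pair of libraries over all genes was male D and female A (Pearson r = 0.9901 of log2 CPM over 15105 genes), and each of the 5 correlations with male A was lower (0.9469 to 0.9587).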
